A study of Mus musculus with 15 samples.

Results

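The comparison concerned D-gel@GSNP cells and non-SP cells of GL261, a mouse glioma cell line, at Day 6, with all genes of the deposited count table taken into account. It used 6 of the 15 RNA sequencing libraries of the series, 3 of each group. The D-gel@GSNP cells were labelled Hoechst-CD133+, were added to a lyophilised chiral hydrogel for 20 min on ice, and were then kept in medium with a cytokine cocktail. The non-SP cells, from outside the side population, were cultured untreated. Both groups received blank medium on days 2 and 4, and all libraries carry genotype WT and the same batch label. Starting population, hydrogel, load, ice step and cytokines all differ between the groups, so their parts cannot be told apart. GSNP is a code name, and what the gel, the load and the cocktail are made of is not given in the sources used here. Nothing in the labels says whether replicates were separate cultures, so p-values measure only the spread between these libraries, which may be technical. Of 34259 genes in the table, 17497 had enough counts to be tested. The other libraries are of Hoechst-CD133+ cells given cytokines with PBS, in L-gel@GSNP or in D-gel@NP. They entered the same fit and are given for scale.

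The side population of a culture is the fraction that pumps out the dye Hoechst through ABC transporters, chiefly the product of Abcg2. In glioma this fraction and CD133, the product of Prom1, have been used to enrich cells with stem-like behaviour. A gene that misses the threshold for a difference may simply be measured poorly, so each gene was given a test for a difference and a test for closeness. A gene was called when its adjusted p in edgeR's quasi-likelihood test was under 0.05. It was taken as shown to lie within 1.5-fold when a pair of one-sided tests placed its difference inside that bound in both directions, again at an adjusted p under 0.05. Levels are counts scaled to a common library total (CPM), and differences are D-gel@GSNP minus non-SP on the log2 scale.

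The total count was 44.8, 55.0 and 44.5 M in the D-gel@GSNP libraries and 41.8, 39.3 and 41.6 M in the non-SP libraries. Chi-square per degree of freedom over genes was 8.37 to 13.5 for pairs of libraries between the groups, 6.35 to 12.95 within D-gel@GSNP and 3.66 to 4.404 within non-SP, so no library repeated another within sampling noise. The median SD of log2 CPM at 5 CPM or more was 0.064 in D-gel@GSNP and 0.048 in non-SP. For the same genes it was 0.085 in PBS, 0.087 in L-gel@GSNP and 0.085 in D-gel@NP, whose libraries also entered the fit. The first principal component of the 6 libraries held 24.05% of the variance and placed D-gel@GSNP at -41.4, -14.9 and -15.4 and non-SP at 18.2, 32.5 and 20.99. The groups did not overlap on it, and D-gel@GSNP 1 lay farthest out. Mitochondrially encoded genes held 3.37, 2.82 and 2.82% of counts in D-gel@GSNP and 2.82, 2.92 and 2.84% in non-SP (exact permutation test, two-sided, p = 0.8; smallest possible p = 0.1). Whether treatment, mislabelling or a common source lies behind the closeness of the groups cannot be told apart from the files. Summed markers of macrophages and microglia were at 57.5 to 61.3 CPM in D-gel@GSNP and 53.3 to 54.1 CPM in non-SP, with 0 of 10 tested markers called. No tested member of the 8 cell type marker lists was called. In bulk RNA, fewer cells of a type and less RNA per cell cannot be told apart.

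The cultures were close in expression, and most called differences were small. D-gel@GSNP cells had higher levels of 18 genes and lower levels of 55 genes than non-SP cells, together 73 of 17497 tested (0.417%; 0.103% higher and 0.314% lower, edgeR, Benjamini-Hochberg). The libraries of the groups did not overlap for any of the 73, against 20.4% of all tested genes. A low p with 3 against 3 libraries mostly goes with groups that do not overlap, so this adds no support to the calls. Rises included the mitochondrial ribosomal RNA gene mt-Rnr2 and the ubiquitin-conjugating enzyme gene Ube2s, and falls included zinc-finger genes, the splicing kinase gene Clk1 and the chromatin gene Atrx. At an unadjusted p under 0.05 (edgeR) there were 786 higher and 795 lower genes, together 9.04% of those tested. That is more than the 0.05 threshold would pass on average if no gene differed. The number of calls depended on which libraries were used, in both directions. It was 6 without D-gel@GSNP 1, 9 without D-gel@GSNP 2 and 140 without D-gel@GSNP 3. It was 10 without non-SP 1, 9 without non-SP 2 and 8 without non-SP 3. DESeq2 called 195 genes, and a fit of the 6 libraries alone called 282.

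Changes of at least 2-fold were called for 7 higher and 15 lower genes (0.126% of those tested), of which 21 were under 5 CPM in both groups and the other was Scand1. Of 10204 genes at 5 CPM or more in the higher group, 12 were called higher and 36 lower, and 10063 (98.6%) were shown to lie within 1.5-fold. Their median absolute log2 difference was 0.06. For scale, PBS against non-SP gave 9388 calls (53.7%), 2189 of them of at least 2-fold (12.5%). L-gel@GSNP against non-SP gave 10468 calls (59.8%; 30.6% higher and 29.2% lower), and D-gel@NP against non-SP gave 9823 (56.1%). These comparisons share the non-SP libraries with the one described here.

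**Figure D1:**
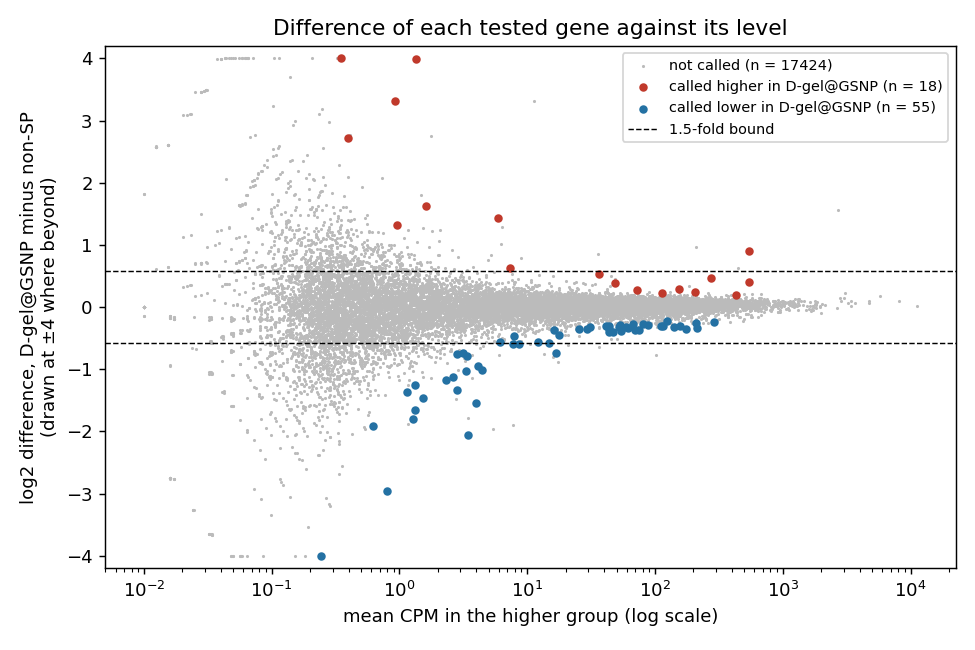
Each point is a tested gene, with its mean CPM in the higher group on the x axis (log scale) and its log2 difference, D-gel@GSNP minus non-SP, on the y axis, drawn at the edge where it lies beyond; dashed lines mark 1.5-fold. Colours mark the 18 genes called higher and the 55 called lower, and the cloud narrows as the level increases.

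How much could be shown depended on level. Among 2569 genes with a mean of 100 CPM or more, 99.7% were shown to lie within 1.5-fold. For 6415 genes at 10 to 100 CPM the share was 99.3%. Between 1 and 10 CPM it was 63.5% of 3443 genes, and under 1 CPM 0.434% of 5070 genes, where the median standard error of a log2 difference was 0.56. Over all tested genes 11140 (63.7%) were shown to lie within 1.5-fold and 13121 (74.99%) within 2-fold. A further 6320 genes (36.1%) were neither called nor shown to be close, so at this depth nothing can be said of a 1.5-fold difference in them. Of the 73 called genes, 36 were also shown to differ by less than 1.5-fold. Protein-coding genes were shown to be close in 10238 of 13045 cases (78.5%), against 902 of 4452 (20.3%) for other or unmatched genes.

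**Figure D2:**
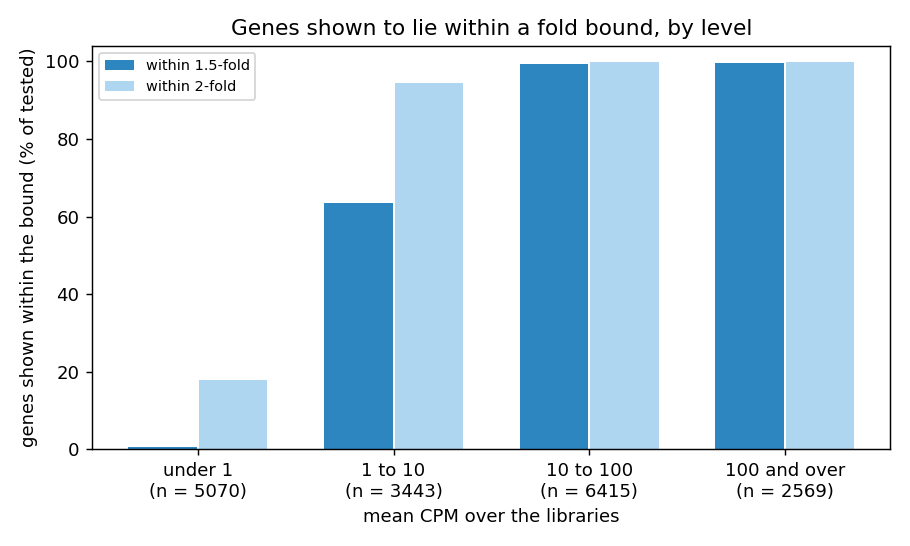
Bars give the percentage of tested genes shown to lie within 1.5-fold or 2-fold between D-gel@GSNP and non-SP, by mean CPM. The share within 1.5-fold was 0.434% under 1 CPM and 99.7% at 100 CPM and over.

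Genes that differ elsewhere in the series, between groups that share no library with this comparison, were looked at after the calls were seen. The comparisons are still not independent, as the spread of each gene was estimated over all libraries in the same fit. L-gel@GSNP against PBS gave 7979 calls (45.6%), 1589 of them of at least 2-fold (9.08%), and 45.5% of tested genes were shown to lie within 1.5-fold there. Of these 1589 genes, 7 were called between D-gel@GSNP and non-SP (0.441%), 3 higher and 4 lower. Between D-gel@GSNP and non-SP, 451 of them (28.4%) were shown to lie within 1.5-fold, against 63.7% of all tested genes. At 5 CPM or more this held for 288 of 306 (94.1%), against 98.6% of all genes at that level. D-gel@NP against PBS gave 5327 calls (30.4%), 677 of at least 2-fold (3.87%). Of those, 3 were called between D-gel@GSNP and non-SP (0.443%), and 127 (18.8%) were shown to be close, with 68 of 75 (90.7%) at 5 CPM or more. Both sets thus had lower shares shown to be close than all tested genes. Most genes of both sets were under 5 CPM, where closeness was shown less often. The share called in both sets was near the background of all tested genes.

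Among the genes that mark the sorted populations and glioma cell states, none was called. Abcg2, the dye pump of the side population, was at 51.1, 47.9 and 50.9 CPM in D-gel@GSNP and 48.9, 48.04 and 47.1 CPM in non-SP, and the libraries of the groups overlapped. Its log2 difference was 0.06 (95% interval -0.06 to 0.17; edgeR adjusted p = 0.811). The related pump genes Abcb1a, at 18.3 ± 1.51 CPM in D-gel@GSNP and 18.04 ± 0.834 CPM in non-SP, and Abcb1b, at 53.7 ± 1.98 CPM in D-gel@GSNP and 52.4 ± 2.47 CPM in non-SP (SD, n = 3), had log2 differences of 0.02 and 0.03, and all 3 pump genes were shown to lie within 1.5-fold. Prom1, which encodes CD133, had 0, 2 and 6 counts in D-gel@GSNP and 0, 0 and 2 counts in non-SP, too few to test. Counts of Prom1 were low in the other Hoechst-CD133+ groups too: D-gel@NP had 10 over its libraries, PBS had 19 and L-gel@GSNP had 35. Prom1 RNA was thus very low at Day 6 in every group with this label. Whether the label held for the starting cells was not tested. Olig2, an oligodendrocyte lineage factor gene, had 0 counts in D-gel@GSNP and 0 in non-SP, and Tubb3, a neuronal tubulin gene, had 5 and 0. Gfap, the astrocyte filament gene, had 24 counts over D-gel@GSNP and 13 over non-SP and was neither called nor shown to be close (log2 0.73, 95% interval -0.79 to 2.27).

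Cd44, an adhesion receptor gene used as a marker of mesenchymal glioma cells, was at 543, 543 and 531 CPM in D-gel@GSNP and 517, 522 and 529 CPM in non-SP, and the libraries of the groups did not overlap. Its log2 difference was 0.05 (95% interval -0.05 to 0.14). Nes, which encodes the intermediate filament nestin, was at 3.63, 3.26 and 3.24 CPM in D-gel@GSNP and 3.52, 3.76 and 3.802 CPM in non-SP, and the libraries of the groups overlapped (log2 -0.13, 95% interval -0.57 to 0.31). The transcription factor gene Myc was at 192 ± 15.3 CPM in D-gel@GSNP and 195 ± 2.08 CPM in non-SP, and Cdkn1a, a p53 target and cell cycle inhibitor gene, at 136 ± 4.67 CPM in D-gel@GSNP and 132 ± 1.01 CPM in non-SP (SD, n = 3). Plk1, a kinase gene of mitosis, was at 164, 156 and 144 CPM in D-gel@GSNP and 142, 140.2 and 143 CPM in non-SP (log2 0.13, edgeR adjusted p = 0.596), and the libraries of the groups did not overlap. The proliferation marker gene Mki67 was at 559, 529 and 629 CPM in D-gel@GSNP and 615, 649 and 652 CPM in non-SP, with a log2 difference of -0.16 (edgeR adjusted p = 0.432), and the libraries of the groups overlapped. These 6 genes were all shown to lie within 1.5-fold.

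Rises were led by 3 genes that were called in each of the 6 fits that leave out 1 library. Scand1, which encodes a SCAN-domain protein, was at 7.64, 5.28 and 4.802 CPM in D-gel@GSNP and 2.32, 1.84 and 2.35 CPM in non-SP. Every D-gel@GSNP library was above every non-SP library, and the difference was 2.71-fold (log2 1.44, SE 0.21; edgeR adjusted p = 0.00219). Its level was 5.43 ± 1.89 CPM in PBS, 4.98 ± 0.268 CPM in L-gel@GSNP and 5.45 ± 0.148 CPM in D-gel@NP, near that of D-gel@GSNP. The large ribosomal RNA of mitochondria, mt-Rnr2, was at 522, 581 and 542 CPM in D-gel@GSNP and 290.0, 299.8 and 295 CPM in non-SP. The groups lay well apart and differed 1.86-fold (log2 0.89, SE 0.09; edgeR adjusted p = 1.79e-05). Ube2s, a ubiquitin-conjugating enzyme gene that works with the anaphase-promoting complex in mitosis, was at 287, 271 and 259.6 CPM in D-gel@GSNP and 197, 200.5 and 193 CPM in non-SP. All D-gel@GSNP libraries were above all non-SP libraries, and the 1.38-fold difference (log2 0.47, SE 0.05; edgeR adjusted p = 1.79e-05) was also shown to be under 1.5-fold.

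The other named rises at 5 CPM or more each lost their call when at least 1 library was left out. Cox11, a copper chaperone gene for the assembly of cytochrome c oxidase, was at 7.66, 7.42 and 6.82 CPM in D-gel@GSNP and 4.55, 4.48 and 5.09 CPM in non-SP (log2 0.63, SE 0.12; edgeR adjusted p = 0.0244). Ppp1r15a, a stress-induced gene whose product directs a phosphatase to a translation initiation factor, was at 38.98, 36.3 and 34.5 CPM in D-gel@GSNP and 26.5, 23.8 and 25.9 CPM in non-SP (log2 0.52, SE 0.10; edgeR adjusted p = 0.0244). Its mean in PBS was 89.00 ± 7.56 CPM. Pim1, a survival kinase gene and a target of STAT factors, was at 51.9, 48.1 and 44.7 CPM in D-gel@GSNP and 37.3, 36.03 and 36.7 CPM in non-SP (log2 0.40, SE 0.07; edgeR adjusted p = 0.0171). Hnrnpab, an RNA-binding protein gene, was at 612, 512 and 509.7 CPM in D-gel@GSNP and 404, 409.7 and 415 CPM in non-SP (log2 0.41, SE 0.07; edgeR adjusted p = 0.0168). D-gel@GSNP 1 was the highest library for each of these 4 genes, and the groups did not overlap for any of them. Mcl1, which encodes a survival protein of the BCL2 family, was at 445, 413 and 433 CPM in D-gel@GSNP and 382, 373 and 379 CPM in non-SP, a difference (log2 0.19, SE 0.04; edgeR adjusted p = 0.0478) that did not pass with RLE or upper-quartile scaling. Zfp622, the histone variant gene H2afx, Fam149a and the Rab regulator gene Tbc1d20 rose by 0.29, 0.28, 0.24 and 0.23 on the log2 scale.

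**Figure D3:**
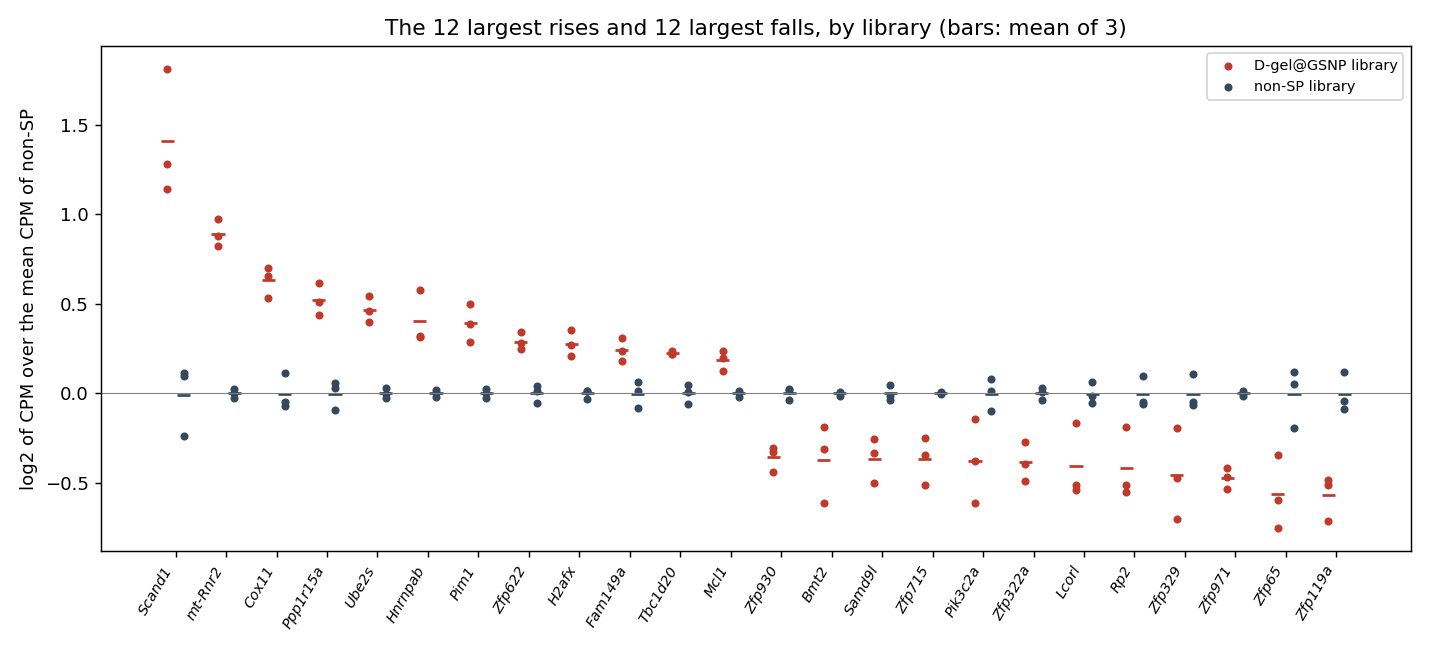
Points are single libraries, as log2 of the CPM over the mean CPM of non-SP, and bars are means of 3. The genes are the 12 largest rises and 12 largest falls among called genes at 5 CPM or more whose groups did not overlap. Gm and Rik symbols and genes without a symbol were left out, so larger falls such as Gm43980 (log2 -0.74) are not shown. D-gel@GSNP stands left of non-SP for each gene. Non-overlap of the libraries was a condition of the choice.

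Promoter windows around the annotated start (RefSeq, GRCm38.p6) were read to set sequence beside these values. Of the called genes, 12 of 18 higher and 34 of 55 lower had an entry, as had 11154 of all tested genes. The windows shown are those of Ube2s, a rise called in every fit, Ppp1r15a, a called stress gene, and Zfp322a, a zinc-finger gene that fell. All 3 hold HIF letters, so they do not stand for the called genes in general. Windows of the called genes Pim1, Samd9l and Mcl1 were also read and are not printed. Those of Pim1 and Samd9l held none of the motifs searched, and that of Mcl1 held only an NF-kB site. Capitals mark matches on either strand of a HIF site (ACGTG), a CRE (TGACGTCA) or the ISRE core. All 3 windows lie on the minus strand, at chr7:4812291-4812590 for Ube2s, chr7:45526219-45526518 for Ppp1r15a and chr13:23369159-23369458 for Zfp322a.
Ube2s: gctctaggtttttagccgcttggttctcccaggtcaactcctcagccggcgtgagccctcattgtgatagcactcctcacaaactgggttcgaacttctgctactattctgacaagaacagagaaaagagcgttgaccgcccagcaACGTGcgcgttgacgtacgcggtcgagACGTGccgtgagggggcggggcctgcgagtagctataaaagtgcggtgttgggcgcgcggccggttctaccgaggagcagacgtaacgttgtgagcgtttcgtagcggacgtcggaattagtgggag
Ppp1r15a: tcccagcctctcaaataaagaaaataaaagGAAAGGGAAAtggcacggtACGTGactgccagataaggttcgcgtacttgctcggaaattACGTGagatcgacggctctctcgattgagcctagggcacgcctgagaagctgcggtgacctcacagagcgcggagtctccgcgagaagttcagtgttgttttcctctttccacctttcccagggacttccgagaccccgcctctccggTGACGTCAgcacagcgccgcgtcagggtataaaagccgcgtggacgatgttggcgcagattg
Zfp322a: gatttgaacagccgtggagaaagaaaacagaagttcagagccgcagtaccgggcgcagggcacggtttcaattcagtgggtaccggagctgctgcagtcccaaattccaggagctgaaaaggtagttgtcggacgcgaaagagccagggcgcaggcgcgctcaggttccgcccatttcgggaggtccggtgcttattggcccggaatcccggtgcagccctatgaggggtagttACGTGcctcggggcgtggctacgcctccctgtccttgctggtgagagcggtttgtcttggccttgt
The HIF letters were found in 4 promoters of higher genes (33.3%), 9 of lower genes (26.5%) and 24.9% of all promoters. The CRE was found in 1 promoter of a higher gene (8.33%), 1 of a lower gene (2.94%) and 3.00% of all, and the ISRE core in 8.33%, 2.94% and 3.17%. An E-box (CACGTG), which contains the HIF letters and is counted under both, was found in 8.33% of promoters of higher genes, 2.94% of those of lower genes and 9.75% of all. These shares describe letters in a window and no more.

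Genes that fell included several zinc-finger genes. The largest called fall at 5 CPM or more was that of Gm43980 (log2 -0.74), a Gm symbol, which the naming rule left out. Zfp322a, whose promoter is shown above, was at 38.9, 41.6 and 45.1 CPM in D-gel@GSNP and 53.2, 54.8 and 55.6 CPM in non-SP, 1.303-fold lower (log2 -0.38, SE 0.06; edgeR adjusted p = 0.0096). Its D-gel@GSNP libraries were all below its non-SP libraries, and the difference was shown to be under 1.5-fold. Zfp65 was at 8.06, 7.23 and 9.603 CPM in D-gel@GSNP and 12.7, 13.2 and 10.7 CPM in non-SP (log2 -0.56, SE 0.10; edgeR adjusted p = 0.0225), and Zfp119a at 3.75, 4.402 and 4.32 CPM in D-gel@GSNP and 5.799, 6.68 and 5.98 CPM in non-SP (log2 -0.56, SE 0.12; edgeR adjusted p = 0.0451). The groups did not overlap for either gene. Zfp971, Zfp329, Zfp715 and Zfp930 fell by 0.47, 0.44, 0.36 and 0.36 on the log2 scale. Each of these 7 genes lost its call when at least 1 library was left out.

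Over the 325 tested genes with a symbol of Zfp and a number, a set picked after the calls were seen, 1 was called higher (Zfp622) and 11 lower (3.69% called). Their median log2 difference was -0.09, and 67.1% were negative. Other protein-coding genes had 12 higher and 23 lower calls of 12727 (0.275%), a median of 0.03 and 36.6% negative. The Zfp median was -0.10 with RLE and -0.12 with upper-quartile scaling. The number of Zfp calls changed with single libraries: there were none without D-gel@GSNP 1, without D-gel@GSNP 2 or without non-SP 2, 2 lower without non-SP 1, 1 lower without non-SP 3, and 1 higher and 22 lower without D-gel@GSNP 3. Zinc-finger genes have closely related copies, and how reads matching several copies were counted is not given in the sources used here, so single members are uncertain.

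Other falls lay in genes of RNA processing, chromatin and genome maintenance, most of them named after their values were seen and with no test of a theme. Called rises held genes of such kinds too, among them the RNA-binding protein gene Hnrnpab and the histone variant gene H2afx. Clk1, a kinase gene whose product phosphorylates splicing factors, was at 140.1, 132 and 138 CPM in D-gel@GSNP and 173, 180.1 and 169 CPM in non-SP (log2 -0.35, SE 0.07; edgeR adjusted p = 0.0244). Its D-gel@GSNP libraries were all below its non-SP libraries. Zfp638, an RNA-binding protein gene, was at 105, 109 and 123 CPM in D-gel@GSNP and 132, 144 and 144 CPM in non-SP (log2 -0.32, SE 0.06; edgeR adjusted p = 0.0244). The splicing-related genes Luc7l3 and Rsrp1 fell by 0.25 and 0.23 on the log2 scale. Thoc2, a subunit gene of the THO complex of mRNA export, fell by 0.30, and Zfc3h1, which links nuclear RNA to the exosome, fell by 0.28.

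Atrx, which encodes a chromatin remodeller often lost in glioma, was at 159, 155 and 196 CPM in D-gel@GSNP and 207, 217 and 217 CPM in non-SP (log2 -0.33, SE 0.07; edgeR adjusted p = 0.0435). D-gel@GSNP 3 lay nearest to the non-SP libraries, and the groups did not overlap. Rev3l, the catalytic subunit gene of a translesion DNA polymerase, was at 45.99, 46.7 and 51.3 CPM in D-gel@GSNP and 57.1, 62.3 and 59.5 CPM in non-SP (log2 -0.31, SE 0.07; edgeR adjusted p = 0.0437). Ogt, the gene of the enzyme that attaches N-acetylglucosamine to nuclear and cytosolic proteins, was at 227, 270.0 and 249 CPM in D-gel@GSNP and 283, 293 and 299.7 CPM in non-SP, 1.17-fold lower (log2 -0.23, SE 0.05; edgeR adjusted p = 0.048). Its level was 484 ± 11.8 CPM in PBS. Mybl1, a transcription factor gene of the MYB family, was at 41.6 ± 3.75 CPM in D-gel@GSNP and 52.2 ± 1.95 CPM in non-SP, beside 103 ± 1.39 CPM in PBS (SD, n = 3). Mga, Phip, Esf1, Bdp1 and Casp8ap2 fell by 0.31, 0.31, 0.31, 0.27 and 0.29 on the log2 scale.

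Samd9l, an interferon-induced gene whose product restrains translation, was at 49.5, 55.6 and 58.7 CPM in D-gel@GSNP and 69.5, 72.6 and 68.4 CPM in non-SP (log2 -0.36, SE 0.07; edgeR adjusted p = 0.0244). The groups did not overlap, and the level in PBS was 122 ± 8.51 CPM. Pik3c2a, a lipid kinase gene of membrane traffic, was at 49.1, 57.8 and 68.01 CPM in D-gel@GSNP and 70.2, 75.8 and 79.3 CPM in non-SP (log2 -0.37, SE 0.08; edgeR adjusted p = 0.0478). Its highest D-gel@GSNP library was just below its lowest non-SP library. Rp2, a gene of protein transport to the cilium, was at 32.9 ± 4.67 CPM in D-gel@GSNP and 43.6 ± 2.69 CPM in non-SP, and Lcorl at 35.8 ± 5.34 CPM in D-gel@GSNP and 47.2 ± 1.98 CPM in non-SP (SD, n = 3), with log2 differences of -0.41 and -0.40. Bmt2 fell by 0.36 on the log2 scale. Each of these 5 genes lost its call when at least 1 library was left out.

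Exonic length, taken from the ratio of the deposited counts to the deposited FPKM values, moved with the direction of the calls. Its median was 3418 bases among the 13 protein-coding genes called higher and 6921 bases among the 34 called lower, against 4402 bases for all 13045 tested. At 5 CPM or more, the 1909 protein-coding genes of 8000 bases and over held 0 higher and 11 lower calls (0.576% lower). The 3883 genes of 4000 to 8000 bases held 4 and 18 (0.464% lower), and the 2798 genes of 2000 to 4000 bases held 4 and 4. The median log2 difference was 0.02, 0.04 and 0.04 in these classes, so the longest class was not lower as a whole. At an unadjusted p under 0.05 the longest class had 66 higher and 173 lower genes, and the class of 2000 to 4000 bases had 177 higher and 62 lower. In D-gel@GSNP 1 the median log2 deviation from the non-SP mean was 0.067 at 2000 to 4000 bases and 0.016 at 8000 bases and over. It was 0.047 and 0.029 in D-gel@GSNP 2, and 0.019 and 0.018 in D-gel@GSNP 3. With an offset by exonic length, added after the data were seen, 16 genes were called higher and 64 lower, 65 of them shared with the 73, and the longest class held 6 lower calls. Lower calls in that class numbered 0, 1 and 50 without D-gel@GSNP 1, 2 and 3, and 1, 0 and 0 without non-SP 1, 2 and 3. The part of length in single calls was not tested.

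**Figure D4:**
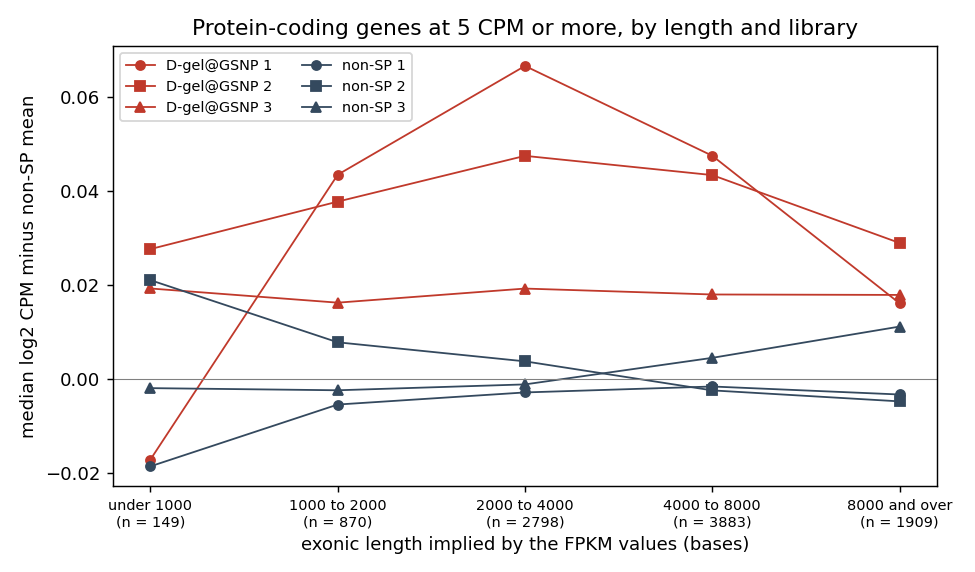
Lines give, for each library, the median over protein-coding genes at 5 CPM or more of log2 CPM minus the non-SP mean, by exonic length class in bases. D-gel@GSNP 1 is at 0.067 for 2000 to 4000 bases and 0.016 for 8000 and over. D-gel@GSNP 2 is at 0.047 and 0.029, and D-gel@GSNP 3 stays near 0.018.

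Genes under 5 CPM made up 25 of the 73 calls. ENSMUSG00000120539, a gene ID without a symbol that is named after its values were seen, was at 0.931, 0.974 and 0.551 CPM in D-gel@GSNP and 3.45, 3.74 and 3.08 CPM in non-SP, 4.14-fold lower (log2 -2.05, SE 0.23; edgeR adjusted p = 6.73e-05). Its level was 2.24 ± 0.349 CPM in PBS, 2.01 ± 0.341 CPM in L-gel@GSNP and 2.04 ± 0.316 CPM in D-gel@NP, so D-gel@GSNP had the lowest mean of the 5 groups. For Snora57, a small nucleolar RNA gene also named after its values were seen, non-SP stood apart instead. It was at 0.629, 1.18 and 1.24 CPM in D-gel@GSNP and 2.54, 2.25 and 2.11 CPM in non-SP (log2 -1.17, SE 0.25; edgeR adjusted p = 0.0451), and its mean was 1.01 CPM in PBS, 0.943 CPM in L-gel@GSNP and 1.08 CPM in D-gel@NP. B3gnt2, a glycosyltransferase gene, was at 1.58, 0.899 and 0.299 CPM in D-gel@GSNP and 0, 0.154 and 0.121 CPM in non-SP (log2 3.32, SE 0.80; edgeR adjusted p = 0.0408), with D-gel@GSNP libraries that differed widely among themselves. Bmf, a death-promoting member of the BCL2 family, was at 1.23, 0.805 and 0.827 CPM in D-gel@GSNP and 0.383, 0.461 and 0.291 CPM in non-SP (log2 1.33, SE 0.26; edgeR adjusted p = 0.0244). Bmf was not called in the fit of the 6 libraries alone, nor when any library other than D-gel@GSNP 3 was left out.

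At the lowest counts, 63 genes had 10 or more counts summed over D-gel@GSNP and 0 in non-SP, and 36 genes the reverse. The largest such count was 57 in D-gel@GSNP and 29 in non-SP. A symbol other than a Gm or Rik one was carried by 21 and 16 of these genes, and among those with the highest counts were Pcdhb2 (19), Myf6 (18), Bach2os (17), Olfr702 (16) and Fam131b (14) in D-gel@GSNP, and Has2 (17), Fgf17 (14), Elfn2 (13), AC154291.1 (13) and Themis2 (12) in non-SP. A count of 0 over a group allows up to 3 counts, that is 0.0208 CPM in D-gel@GSNP and 0.0245 CPM in non-SP, which covers counting error only. Of these genes with a symbol, Bach2os was tested and not called, and the other named ones were too low to test. Over all tested genes, 1 was called higher with every non-SP library at 0, and 1 lower with every D-gel@GSNP library at 0. The first, Gm10933, was at 0.419, 0.187 and 0.437 CPM in D-gel@GSNP and 0, 0 and 0 CPM in non-SP (edgeR adjusted p = 0.0212). The second, the processed pseudogene Gm9726, was at 0, 0 and 0 CPM in D-gel@GSNP and 0.1198, 0.4097 and 0.194 CPM in non-SP (edgeR adjusted p = 0.0351). Both were named after their values were seen. Bach2os is named as an antisense gene, and without a known strand setting its reads cannot be told apart from those of its partner.

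The 42 lists of pathway genes gave few calls. Of 763 tested members, 4 were called higher (Pim1, mt-Rnr2, Bmf and Mcl1) and 0 lower, and 677 (88.7%) were shown to lie within 1.5-fold. At 5 CPM or more this held for 647 of 656 members. The median log2 difference of the members was 0.04, beside 0.03 over all tested genes.

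Cell cycle genes were close throughout. All 32 tested DNA replication genes and all 24 genes of G2 and mitosis were shown to lie within 1.5-fold, with medians of 0.08 and 0.04 and no call. Mcm3, a subunit gene of the replicative helicase, was at 585, 547 and 537 CPM in D-gel@GSNP and 529, 508 and 510.3 CPM in non-SP (log2 0.11, edgeR adjusted p = 0.528), and the libraries of the groups did not overlap. Top2a, a topoisomerase gene of mitosis, was at 839.5, 861 and 904 CPM in D-gel@GSNP and 904, 932 and 919.8 CPM in non-SP (log2 -0.08, edgeR adjusted p = 0.692), and the libraries of the groups did not overlap. The 12 tested genes of cyclins, inhibitors and pocket proteins and the 23 DNA repair genes were all within the bound as well. Among the p53 pathway genes 24 of 25 were within it and none was called. The exception, the growth arrest gene Gadd45a, was at 10.2, 10.2 and 11.6 CPM in D-gel@GSNP and 8.67, 7.32 and 7.63 CPM in non-SP (log2 0.43, edgeR adjusted p = 0.0513), and the libraries of the groups did not overlap.

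Stress and organelle genes were similarly close. In the integrated stress response and amino acid list 21 of 24 members were within 1.5-fold, and Slc38a2, an amino acid transporter gene, was at 1111 ± 25.4 CPM in D-gel@GSNP and 1055 ± 24.99 CPM in non-SP (SD, n = 3; log2 0.08). All 20 endoplasmic reticulum chaperone genes and 17 tested heat shock genes were within the bound. Hsp90ab1, a cytosolic chaperone gene, was at 2869.5 ± 35.8 CPM in D-gel@GSNP and 2684 ± 6.43 CPM in non-SP (SD, n = 3; log2 0.10). All 22 lysosome and autophagy genes, 24 cholesterol synthesis genes and 14 genes of fatty acid synthesis were within it too. Fasn, the fatty acid synthase gene, was at 489, 496 and 459 CPM in D-gel@GSNP and 463, 449 and 464 CPM in non-SP (log2 0.07), and the libraries of the groups overlapped. The NRF2 and glutathione list had 23 of 24 members within 1.5-fold, the hypoxia and glycolysis list 22 of 27 and the iron list 11 of 13, with no call. All 38 cytosolic ribosomal protein genes, 26 proteasome genes, 23 ribosome biogenesis genes and 28 nuclear-encoded respiratory chain genes were within the bound.

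Mitochondrially encoded genes had the highest median of the lists, 0.18, with 10 of 15 within 1.5-fold and mt-Rnr2 as the single call. The small ribosomal RNA gene mt-Rnr1 was at 194, 194 and 167 CPM in D-gel@GSNP and 138, 157 and 142 CPM in non-SP (log2 0.34, edgeR adjusted p = 0.623). Its groups did not overlap, but the spread was wide in PBS, at 289 ± 124 CPM (SD, n = 3). The gene mt-Nd2, for a subunit of complex I, was at 3609, 2869 and 2780.3 CPM in D-gel@GSNP and 2569, 2700.5 and 2611 CPM in non-SP (log2 0.23, edgeR adjusted p = 0.162), with D-gel@GSNP 1 as the high library. The gene mt-Co1, for a subunit of cytochrome c oxidase, was at 12364, 10685 and 10569 CPM in D-gel@GSNP and 10748, 11325 and 10988 CPM in non-SP (log2 0.02), and the libraries of the groups overlapped. With these genes left out of the fit, 70 genes were called, all among the 73.

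Immune and signalling lists held members at low levels. Of the interferon response genes 16 of 29 were shown to lie within 1.5-fold and none was called. Gbp3, an interferon-induced GTPase gene, was at 409, 403 and 416 CPM in D-gel@GSNP and 424, 425 and 431 CPM in non-SP (log2 -0.06), and the libraries of the groups did not overlap. MHC class I presentation had 12 of 16 and the NF-kB and inflammatory list 20 of 25 within the bound, with no call. In the list of gp130 and STAT3 signalling 11 of 15 were within it and Pim1 was the 1 call. The cytokine receptor gene Lifr of that list was at 436, 427 and 444 CPM in D-gel@GSNP and 420.3, 407 and 424 CPM in non-SP (log2 0.06), and the libraries of the groups did not overlap. The BCL2 family had 2 calls, Mcl1 and Bmf, and 12 of 13 within 1.5-fold. The counts within the bound were 16 of 19 for TGF-beta genes, 11 of 14 for Wnt, 8 of 11 for Notch, 5 of 5 for Hedgehog, 14 of 15 for YAP targets, 13 of 14 for ERK feedback and 16 of 19 for immediate early genes, with no call. Ccn1, a matricellular YAP target gene, was at 51.1, 45.6 and 48.8 CPM in D-gel@GSNP and 37.4, 33.8 and 34.6 CPM in non-SP (log2 0.46, edgeR adjusted p = 0.136), and it was neither called nor shown to be close although the libraries did not overlap.

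Matrix and surface genes gave no call. The collagen, laminin and crosslinker list had a median log2 difference of 0.10, with 20 of 28 members within 1.5-fold. Fn1, which encodes fibronectin, was at 3074, 3139 and 2901 CPM in D-gel@GSNP and 2718, 2694 and 2829.6 CPM in non-SP (log2 0.15, 95% interval -0.08 to 0.37; edgeR adjusted p = 0.738), and the libraries of the groups did not overlap. It was shown to lie within 1.5-fold. The counts within the bound were 18 of 23 for integrins and actin, 13 of 17 for matrix proteases, 12 of 13 for mesenchymal transition, 6 of 6 for glypicans and syndecans, 10 of 13 for receptor tyrosine kinases, 9 of 11 for checkpoint ligands, 5 of 10 for tubulin and neuronal cytoskeleton and 4 of 4 for metal response. Of the stem-like markers all 15 that could be tested were within it, and of the efflux pump genes 11 of 12. Aldh1a1, an aldehyde dehydrogenase gene used as a stem-like marker, was at 1268 ± 35.7 CPM in D-gel@GSNP and 1244 ± 10.8 CPM in non-SP (SD, n = 3; log2 0.03).

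**Figure D5:**
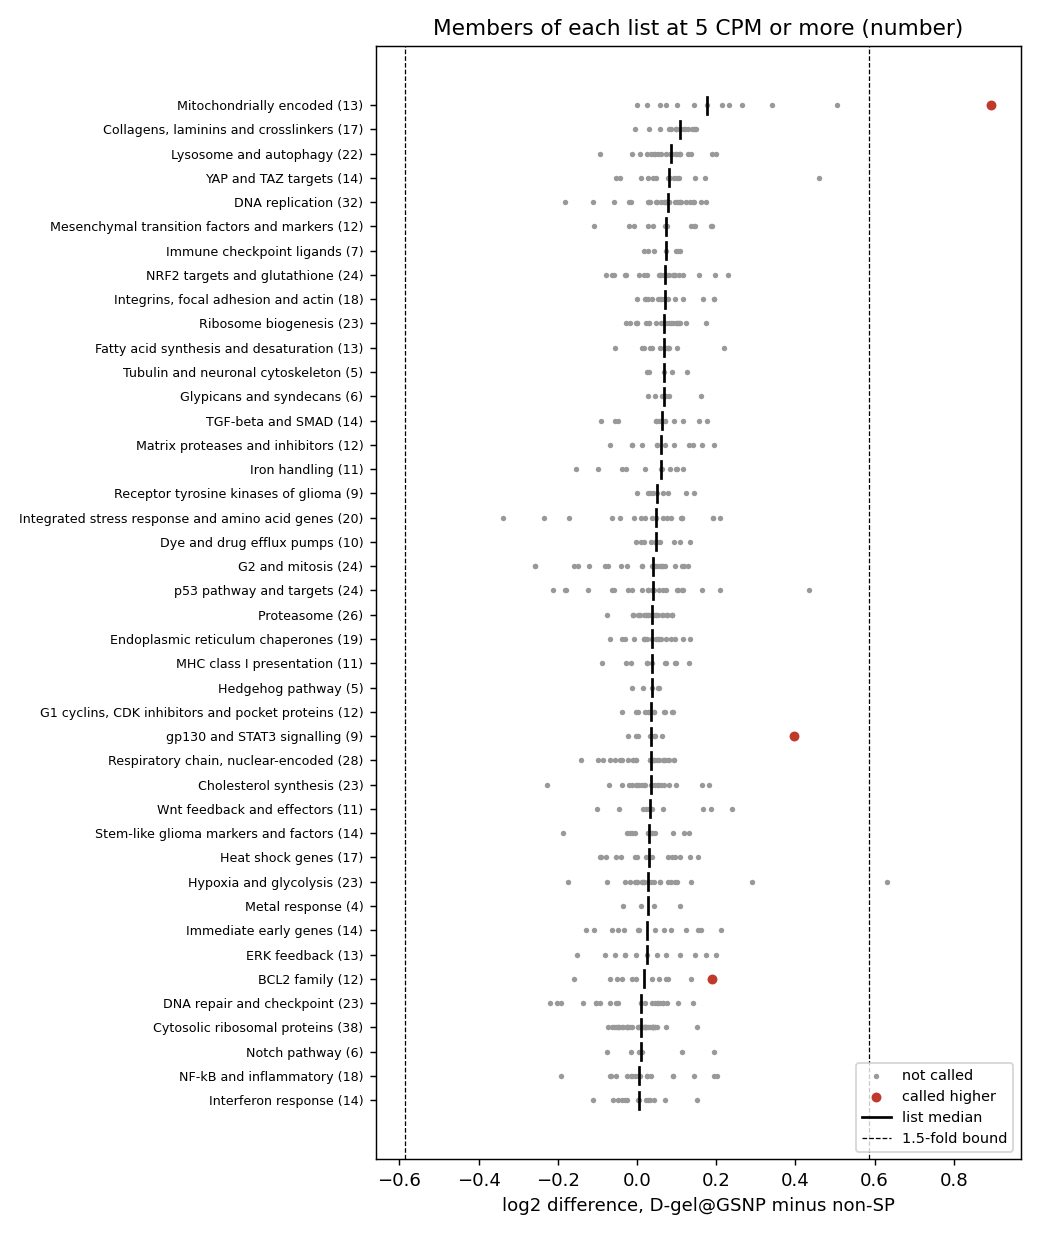
Points are the log2 differences, D-gel@GSNP minus non-SP, of list members at 5 CPM or more, by list, with list medians as bars. Most points lie near 0; the 3 called members are mt-Rnr2, Pim1 and Mcl1, and Gapdh, which was not called, is at 0.63.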

How the data were processed

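Per the labels' protocols, total RNA was taken with TRIzol and made into paired-end libraries. The deposited table holds whole-number counts per gene, which the authors made on GRCm39; the submitters' processing notes name fastp 0.22.0, HISAT2 2.1.0, featureCounts and DESeq2. Strand and multi-mapping settings are not given in the sources used here. The deposited FPKM values, also made by the authors, gave the exonic lengths and an alternative test. Gene symbols and classes were looked up in GENCODE for an earlier mouse build (32434 of 34259 genes matched).

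In R 4.3.3, edgeR 4.0.16 was run on the counts with filterByExpr by group, TMM factors and a quasi-likelihood fit of group means over all 15 libraries, with Benjamini-Hochberg adjustment over 17497 genes. The biological coefficient of variation was 8.06%. Closeness was tested with one-sided tests on both sides of a 1.5-fold bound from the same fit. The method was tested on simulated data. Of counts from 1 to 20, 62.32 to 64.24% were even in the 6 libraries, so counts may not be single molecules.

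The rule named a panel of marker genes. It named the 12 largest rises and 12 largest falls among called genes at 5 CPM or more whose groups did not overlap. Added to these were the called genes with the 10 lowest adjusted p and the called list members. The rest were the 2 highest list members shown to be close, and up to 6 genes per side with counts in 1 group only. Gm and Rik symbols and genes without a symbol were left out, and not all genes that meet the rule are described or reported here. Genes outside the rule (Clk1, Luc7l3, Rsrp1, Thoc2, Zfc3h1, Atrx, Rev3l, Ogt, Mybl1, Mga, Phip, Esf1, Bdp1, Casp8ap2, B3gnt2, mt-Nd2, mt-Rnr1, Gadd45a and Ccn1 among them) were chosen after their values were seen. Members, lists and tests were chosen with earlier results of these data known. A histone list with 1 matched gene was dropped. Alternatives were other scaling factors and filters, DESeq2 1.42.0, the 6 libraries alone, a replicate block, leaving out libraries, thinning, no mitochondrially encoded genes, limma 3.58.1 on log2(FPKM + 1) or log2(FPKM + 0.1) and, added after the data were seen, an offset by exonic length.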

Additional observations from a re-analysis of the deposited data

How the results depend on the processing

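Genes shown to lie within 1.5-fold numbered 10553 to 11346 under the count-based alternatives. Genes that passed the same bound numbered 12890 with limma on log2(FPKM + 0.1), 16963 on log2(FPKM + 1) and 33206 on log2(FPKM + 1) with no filter. The added constant shrinks the log2 difference of genes at low FPKM whatever their ratio. These limma numbers therefore do not show closeness for such genes. Called genes numbered 9 at an adjusted p under 0.01, 155 under 0.1, 239 with no filter, 195 with DESeq2, 282 in the 6 libraries alone, 22 after thinning, 116 without the shallowest and deepest libraries of the series, and 25, 36 and 11 with limma on log2(FPKM + 1), on log2(FPKM + 0.1) and on log2(FPKM + 1) with no filter. Calls of at least 2-fold numbered 58 with no filter, 37 with DESeq2, 36 in the 6 libraries alone, 5 after thinning, and 2, 11 and 1 with limma in that order. A replicate block gave 34 calls over all libraries and 446 in the 6 libraries, with 11 and 40 of at least 2-fold. The labels state no pairing of same-numbered libraries. Deviations of same-numbered libraries from their group means correlated at 0.11, 0.04 and -0.15. With means of only 3 libraries, these values cannot decide whether the samples were paired. Leaving out 1 library gave 6 to 140 calls, 3 to 21 of at least 2-fold, 10676 to 10812 genes within 1.5-fold, and a difference in mitochondrial share of -0.04 to 0.23 percentage points. The 26 called genes that the naming rule gave kept their direction in every alternative that tested them, and 3 stayed past it without D-gel@GSNP 1, against 26 with DESeq2. Called genes named outside the rule were not followed one by one across the alternatives. The causes were not tested. Depth limits the test of closeness under 1 CPM.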

Other observations

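A few genes past 5 CPM differed by at least 2-fold between group means without being called. Gm10486, an X-linked gene, was at 2.44, 2.55 and 29.2 CPM in D-gel@GSNP and 1.89, 1.31 and 0.194 CPM in non-SP, so D-gel@GSNP 3 stood apart (edgeR adjusted p = 0.221). Gm14632, also X-linked, was at 0.536, 3.71 and 1.84 CPM in D-gel@GSNP and 1.75, 18.7 and 2.64 CPM in non-SP, with non-SP 2 apart (edgeR adjusted p = 0.493). The gene ID without a symbol ENSMUSG00000119584 was at 1056, 3623 and 3412 CPM in D-gel@GSNP and 737, 1064 and 929.8 CPM in non-SP, with D-gel@GSNP 1 near the non-SP values (edgeR adjusted p = 0.473). These genes were named after their values were seen.

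Gapdh, a glycolysis gene often used to scale expression, was at 487, 475 and 372 CPM in D-gel@GSNP and 77.6, 367 and 417 CPM in non-SP, where non-SP 1 was far below the other libraries, and at 214 ± 149 CPM in PBS (SD, n = 3). Its log2 difference was 0.63 (edgeR adjusted p = 0.792). Gapdh has processed pseudogenes, and how reads matching several copies were counted is not given in the sources used here. Eno1, another gene of glycolysis, was at 1474, 1482 and 1395 CPM in D-gel@GSNP and 1412, 1429 and 1407 CPM in non-SP (log2 0.03).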
